A study of Homo sapiens with 4 samples.

Results

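Glycolysis breaks glucose down to pyruvate in the cytosol, and lactate dehydrogenase then turns pyruvate into lactate, which monocarboxylate transporters carry out of the cell. Most steps can be run by several isozymes, related enzymes encoded by separate genes that differ in tissue and in how they are regulated. Pluripotent stem cells rely strongly on this route, and pyruvate dehydrogenase, which is held back by its kinases, decides how much pyruvate enters the mitochondria instead.

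The genes described here were 36 of the 60671 in the expression table, chosen by name to cover glucose uptake, each glycolytic step, lactate formation and export, and pyruvate dehydrogenase with its kinases. All 36 were found. Poly(A)+ RNA was sequenced from H9, an established human embryonic stem cell line, in 2 control libraries and 2 libraries of cells with an edited CFIm25 gene that also overexpressed CFIm25 with a 3Flag tag, called KO+OE below. CFIm25, encoded by NUDT21, is a subunit of the factor that helps to choose the cleavage and polyadenylation sites of new mRNAs. The comparison asks how close the line with restored CFIm25 stood to control cells.

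Per the study's methods, H9 cells were kept in mTeSR medium on Matrigel. The tagged protein came from a lentivirus with the EF1 promoter and was put into 1 edited clone, so the KO+OE group stands for a single clone. The sample labels call the edit a knockout and the series title a knockdown, and the study describes the edited cells as keeping a shortened protein at a low level. The study's mock controls were clones with an empty editing vector, but the labels say only "control". A legend of the study calls the comparator in its overexpression RNA-seq "mock (m+OE)", with m for mutant and OE for overexpression. Which cells the control libraries came from is thus not known. Edited cells without the tagged protein were not analysed here, and nothing states that libraries of a group came from separate cultures, so the spread between them may be technical.

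The deposited values name no unit and were read as TPM, a transcript share scaled to a common total. TPM divides by transcript length and so lets genes be compared within a library. All isozyme shares and ratios between genes below rest on this reading. NUDT21 stood at 160.67 and 152.2 TPM in control cells against 162.09 and 156.6 TPM in KO+OE cells. Because the row may take reads from both the edited gene and the added one, it cannot check the labels. All 9 pluripotency markers examined were present, and their sums lay between 3303 and 3338 TPM in the 4 libraries. POU5F1 made up most of these sums, with a mean of 2189 TPM, while SALL4, NANOG, SOX2 and L1TD1 averaged 16.8 to 21.8 TPM. Of 38 markers of other lineages, 12 averaged 1 TPM or more and 8 were listed at 0 in every library, with sums of 447 to 453 TPM. Most of this was ACTA1, the skeletal muscle actin, at 306.66 to 313.27 TPM, while the muscle factor MYOG was listed at 0 throughout.

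Sequences before the start of a few genes are shown for the motif of a factor known to act on this pathway. Many glycolytic genes are targets of hypoxia-inducible factor, which binds the core ACGTG or GCGTG, and these letters read CACGT or CACGC on the other strand. Of the 36 genes, 27 had a RefSeq promoter entry (GRCh38.p14) that ran into the canonical transcript. Within the 250 bases before the start, 20 of the 27 held at least 1 core on either strand (74.1%), against 50.6% of 15768 genes with such an entry. At least 3 cores were found in 6 of them (22.2%), against 7.47% of all genes. These windows were also richer in G and C, with a median of 70.8% against 62.8%, and both motifs contain mostly G and C. The palindrome CACGTG, which holds the core on both strands and is also the E-box bound by MYC, was present in 6 of the 27 and in 7.70% of all genes. A match is only a description of letters and is no evidence of binding.

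The 220 bases before the start are given for 5 genes that the results below return to, 5′ to 3′ on the strand of the gene, with each core in capitals. They are the pair of lactate dehydrogenases, which differ in how many cores they hold, PGK1 with the cores close together, HK2 as the inducible hexokinase, and PDK2 as the gene with the lowest unadjusted p. LDHA lies at chr11:18394343-18394562 (+), LDHB at chr12:21657843-21658062 (-), PGK1 at chrX:78104028-78104247 (+), HK2 at chr2:74833907-74834126 (+) and PDK2 at chr17:50095131-50095350 (+).
LDHA: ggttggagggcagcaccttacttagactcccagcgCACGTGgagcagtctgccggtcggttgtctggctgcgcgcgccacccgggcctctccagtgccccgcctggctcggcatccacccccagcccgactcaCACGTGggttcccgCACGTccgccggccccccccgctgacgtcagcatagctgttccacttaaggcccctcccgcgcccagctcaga
LDHB: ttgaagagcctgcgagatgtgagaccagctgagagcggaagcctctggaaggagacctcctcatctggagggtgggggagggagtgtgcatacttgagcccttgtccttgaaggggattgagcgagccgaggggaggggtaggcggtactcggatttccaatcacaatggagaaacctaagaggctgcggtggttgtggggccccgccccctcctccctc
PGK1: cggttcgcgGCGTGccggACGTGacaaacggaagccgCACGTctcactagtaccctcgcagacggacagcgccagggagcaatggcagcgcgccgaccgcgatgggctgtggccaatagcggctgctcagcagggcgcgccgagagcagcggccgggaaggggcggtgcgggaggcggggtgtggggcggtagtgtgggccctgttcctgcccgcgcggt
HK2: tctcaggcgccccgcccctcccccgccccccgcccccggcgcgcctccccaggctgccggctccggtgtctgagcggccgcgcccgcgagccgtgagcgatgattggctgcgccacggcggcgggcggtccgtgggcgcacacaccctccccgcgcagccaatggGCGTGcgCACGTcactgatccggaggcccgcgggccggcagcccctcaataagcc
PDK2: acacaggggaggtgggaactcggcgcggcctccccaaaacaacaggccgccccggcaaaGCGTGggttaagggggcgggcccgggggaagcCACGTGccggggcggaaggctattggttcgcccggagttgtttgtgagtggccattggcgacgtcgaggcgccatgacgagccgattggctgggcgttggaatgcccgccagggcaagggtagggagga
LDHA and PGK1 showed 3 cores each in these windows, HK2 and PDK2 showed 2 each, and LDHB showed 0. LDHA and PDK2 each carried the palindrome.

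Many of these genes were abundant in these cells, though only GAPDH and ENO1 were among the 100 highest genes. Of the tested genes, 13 averaged under 50 TPM. Together the 36 genes summed to 15263 and 15389 TPM in the control libraries and to 15186 and 15351 TPM in the KO+OE libraries, a mean of 1.55% of the deposited total. The sums of the groups overlapped, with a log2 ratio of -0.0055 and an exact two-sided permutation p of 0.667. With 2 libraries against 2, no such test can give a p under 0.333. GAPDH made up 39.9% of the sum, and GAPDH, ENO1, ALDOA, PKM and TPI1 together 79.7%. The 32 genes that averaged 1 TPM or more had a median of 113 TPM, against 7.77 TPM for the 12319 genes that passed this filter, and 18 of the 32 lay above the 90th percentile. HK3, PFKFB1, GAPDHS and LDHC did not pass it.

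**Figure D1:**
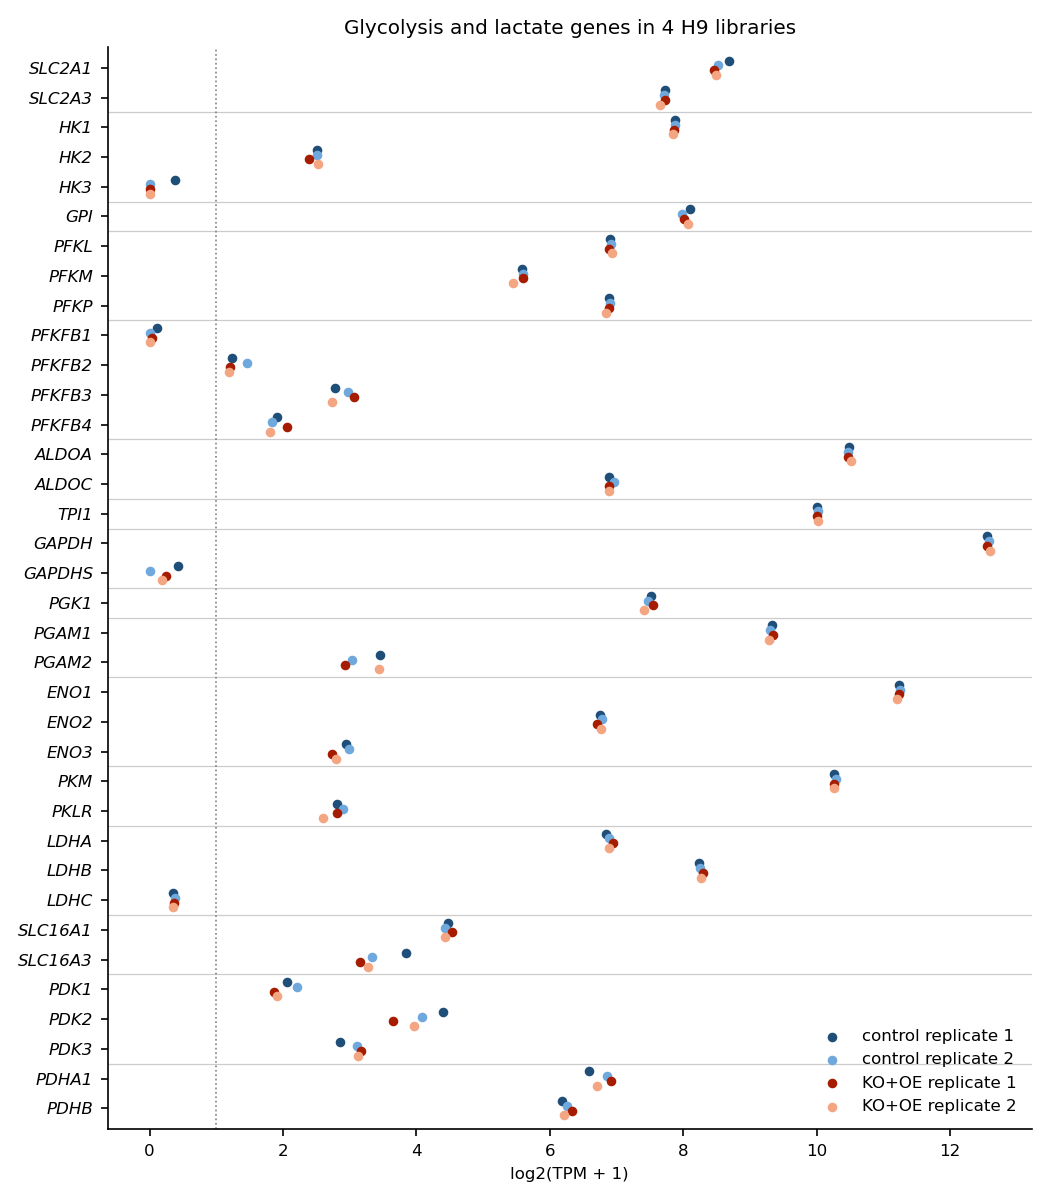
Level of each of the 36 genes as log2(TPM + 1), grouped by step in order along the pathway, with 1 point for each of the 2 control and 2 KO+OE libraries. The dotted line at 1 stands for 1 TPM, the mean needed for testing. GAPDH lies highest, with a mean of 6097 TPM, and HK3, PFKFB1, GAPDHS and LDHC lie under the line.

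Glucose uptake and the first phosphorylation were each led by 1 gene. SLC2A1, the widespread glucose transporter GLUT1, stood at 410.82 and 366.41 TPM in control cells and at 353.46 and 360.16 TPM in KO+OE cells. SLC2A3, the high-affinity transporter GLUT3, ranged from 201.02 to 211.3 TPM, so SLC2A1 took 64.8% ± 1.68 (SD, n = 2) of their sum in control cells and 63.4% ± 1.08 (SD, n = 2) in KO+OE cells. Among HK1, HK2 and HK3, hexokinase was almost entirely HK1, the constitutive form bound to mitochondria, at 229.56 to 234.84 TPM. HK2, the form induced by hypoxia and insulin, was listed at 4.71 and 4.67 TPM in control cells and at 4.25 and 4.74 TPM in KO+OE cells. HK1 thus held 98.0% ± 0.104 (SD, n = 2) and 98.1% ± 0.163 (SD, n = 2) of the summed level of the 3 genes. HK3, a form of blood cells, was at 0.3 TPM in 1 control library and at 0 in the other libraries. GPI, which makes fructose-6-phosphate, lay between 252.88 and 273.54 TPM.

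Phosphofructokinase, the committing step, was shared almost evenly by a pair of isozymes. PFKL, the liver form, was at 118.78 and 119.77 TPM in control cells and at 117.18 and 120.6 TPM in KO+OE cells. PFKP, the platelet form, was at 116.89 and 119.16 TPM and at 116.87 and 114.08 TPM. The ratio of PFKL to PFKP was 1.01 ± 0.00781 (SD, n = 2) in control cells and 1.03 ± 0.0385 (SD, n = 2) in KO+OE cells. PFKL was above PFKP in all 4 libraries, by a ratio of 1.003 to 1.057, and this excess was larger than the SD in control cells and smaller than it in KO+OE cells. PFKM, the muscle form, held the remaining 16.6% in control and 16.1% in KO+OE cells. The enzymes that make or remove fructose-2,6-bisphosphate, the activator of phosphofructokinase, were far scarcer, with a sum of 10.6 TPM. PFKFB3, the form with the strongest kinase activity, led them at 5.68 to 7.36 TPM, followed by PFKFB4 at 2.48 to 3.15 TPM and PFKFB2 at 1.28 to 1.74 TPM. The liver form PFKFB1 was under 0.1 TPM in every library.

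Apart from PGK1, the enzymes from aldolase down to pyruvate kinase were more abundant than those before them. Aldolase was led by ALDOA, the muscle and embryonic form, at 1412.41 to 1471.37 TPM, with 92.2% of the step in control and 92.4% in KO+OE cells. ALDOC, the brain form, ranged from 117.59 to 123.84 TPM. TPI1, which interconverts the triose phosphates, lay between 1023.69 and 1041.75 TPM. GAPDH, which produces NADH at this point, was at 6023.94 and 6156.05 TPM in control cells and at 5998.49 and 6210.49 TPM in KO+OE cells. It ranked 21 among all genes of the table, and its sperm form GAPDHS did not exceed 0.35 TPM.

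PGK1, which makes the first ATP of the pathway, was the lowest step between GAPDH and pyruvate kinase. It stood at 182.41 and 176.26 TPM in control cells and at 186.52 and 169.9 TPM in KO+OE cells. PGAM1 followed at 621.52 to 647.16 TPM, and the muscle form PGAM2 at 6.65 to 9.96 TPM gave it 98.7% of the step in either group. ENO1, the widespread enolase, was at 2359.75 to 2431.2 TPM and ranked 75. The neuronal form ENO2 reached 103.31 to 108.78 TPM, which was 4.25% of enolase in control cells. PKM, the pyruvate kinase of most tissues, was at 1226.62 to 1253.51 TPM and took 99.5% of its step in control and 99.6% in KO+OE cells. PKLR, the liver and red cell form, was at 5.07 to 6.49 TPM. The table gives 1 value per gene, so the splice forms of PKM were not separated.

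**Figure D2:**
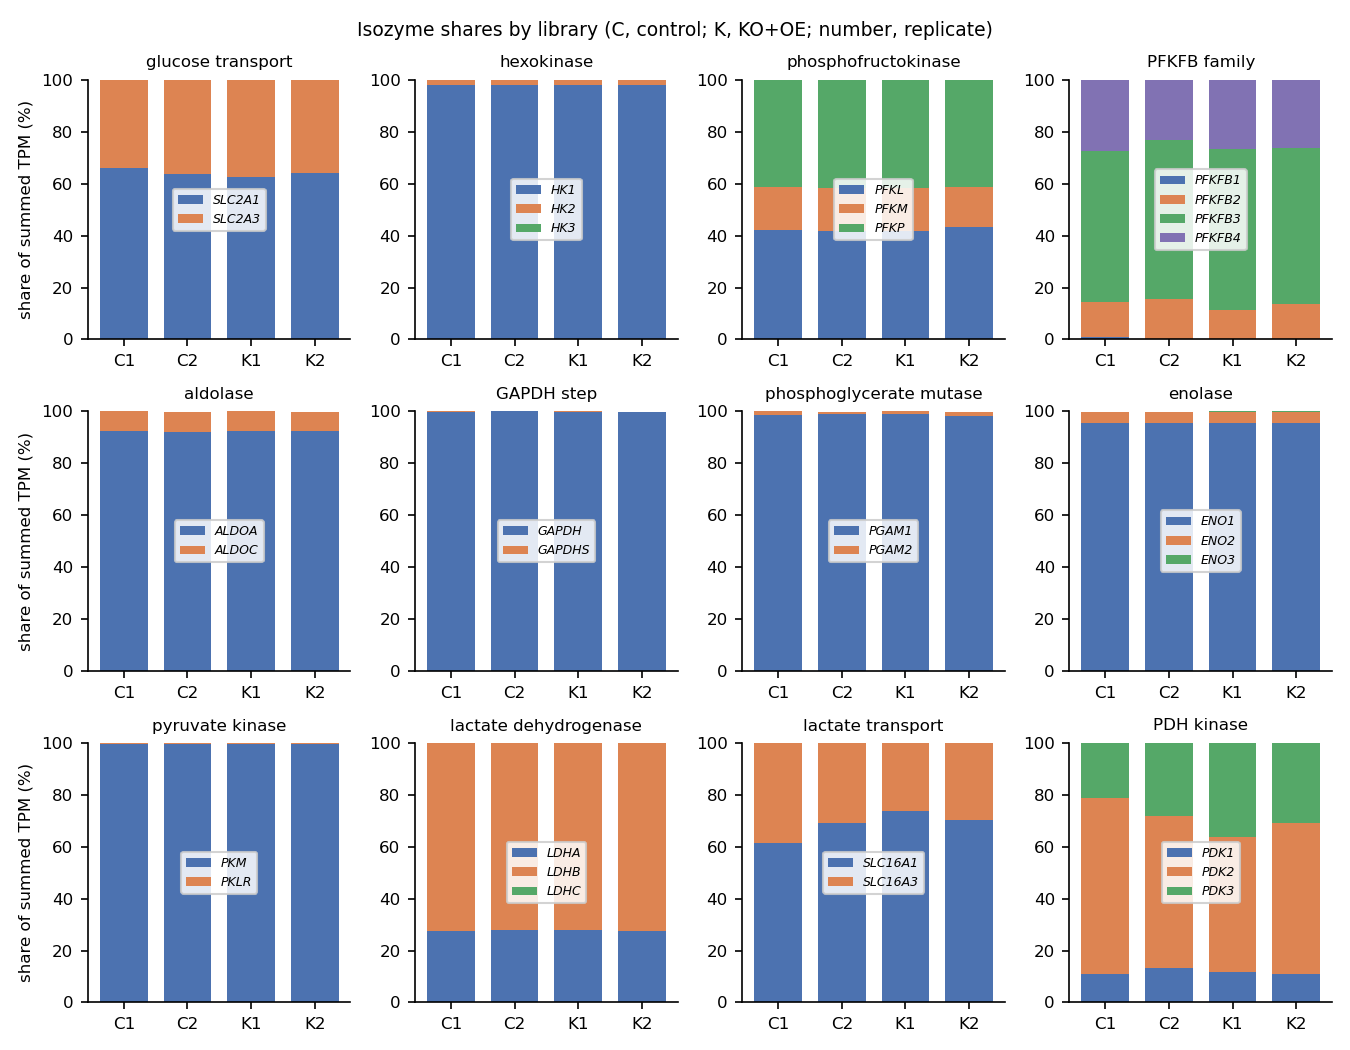
Share of each isozyme in the summed TPM of its step, in percent, as stacked bars from 0 for each of the 4 libraries in the 12 steps with more than 1 gene. HK1, GAPDH, PGAM1, ENO1 and PKM fill over 95% of their steps, PFKL and PFKP are nearly level, and LDHB fills about 72% of lactate dehydrogenase.

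Lactate dehydrogenase was mostly LDHB. LDHB encodes the heart subunit, favoured in tissues that use lactate, and stood at 300.76 and 305.07 TPM in control cells and at 314.91 and 307.74 TPM in KO+OE cells. LDHA encodes the muscle subunit, favoured in tissues that make lactate, and stood at 113.48 and 117.18 TPM and at 122.41 and 118 TPM. LDHB therefore exceeded LDHA in all 4 libraries, by a ratio of 2.63 ± 0.0332 (SD, n = 2) in control cells and 2.59 ± 0.0250 (SD, n = 2) in KO+OE cells. The testis form LDHC was at 0.27 to 0.3 TPM. For lactate export, SLC16A1, the transporter MCT1, was at 21.13 and 20.6 TPM in control cells and at 22.24 and 20.65 TPM in KO+OE cells. SLC16A3, the exporter MCT4 of strongly glycolytic tissue, was at 13.36 and 9.13 TPM and at 7.88 and 8.71 TPM.

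At the branch into the mitochondria, the E1 subunits of pyruvate dehydrogenase were more abundant than their kinases. PDHA1 was at 95.27 and 115.39 TPM in control cells and at 119.91 and 103.74 TPM in KO+OE cells, and PDHB ranged from 71.76 to 79.26 TPM. The kinases summed to 26.1 TPM over PDK1, PDK2 and PDK3. PDK2, the widespread form, was at 20.14 and 15.96 TPM in control cells and at 11.56 and 14.62 TPM in KO+OE cells. PDK3 was at 6.26 and 7.67 TPM and at 8.03 and 7.72 TPM. PDK1, the hypoxia-induced form, was at 3.19 and 3.65 TPM and at 2.65 and 2.75 TPM. PDK2 and PDK1 were thus lower and PDK3 higher in both KO+OE libraries. The PDK2 share was 63.3% ± 6.76 (SD, n = 2) in control and 55.1% ± 4.45 (SD, n = 2) in KO+OE cells. By library it was 68.1% and 58.5% in control cells and 52.0% and 58.3% in KO+OE cells. The replicate 2 libraries were thus nearly level.

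The leading isozyme of each step was the same gene in all 4 libraries. The shares of the dominant isozyme were compared in 12 steps by the exact two-sided permutation test over libraries, and each adjusted p was 1. The raw p was 0.333, the smallest this design allows, for PKM, SLC16A1 and PDK2 and higher for the others. For 17 ratios between isozymes the same test gave adjusted p-values of 0.944 to 1. Of these 17 ratios, 6 did not overlap between the groups. Among all single genes tested, 34.1% did not overlap, though a single gene is not a ratio. No share was computed for ratios of other genes, and several of the 17 share a gene. The count thus does not set these ratios apart. The ratio of PDK2 to PDK3 was 2.65 ± 0.804 (SD, n = 2) in control and 1.67 ± 0.321 (SD, n = 2) in KO+OE cells, and that of SLC16A1 to SLC16A3 was 1.92 ± 0.477 (SD, n = 2) and 2.60 ± 0.319 (SD, n = 2). The ratio of PDK3 to PDK1 was 2.03 ± 0.0983 (SD, n = 2) in control and 2.92 ± 0.158 (SD, n = 2) in KO+OE cells. That of ENO2 to ENO3, the muscle enolase, was 15.8 ± 0.116 (SD, n = 2) and 18.2 ± 0.0413 (SD, n = 2). PKM to PKLR and PFKFB3 to PFKFB2 were the other pairs without overlap, and all 6 had the smallest p of 0.333.

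No single gene of the set differed between control and KO+OE cells by the test. The groups were compared on the scale log2(TPM + 1), which understates the change of low genes, with limma and Benjamini-Hochberg adjustment over all 12319 genes tested. Of the 32 genes tested, 0 passed an adjusted p of 0.05, and 1, PDK2, had an unadjusted p under 0.05. Among all genes tested, 1 was called (0.00812%), and 656 had an unadjusted p under 0.05 (5.33%). The adjusted p-values of the 32 genes lay between 0.928 and 0.997. Their median log2 fold change was -0.018, against -0.012 over all genes tested, and their median absolute log2 fold change was 0.0381, against 0.0820. These absolute values were not compared at like abundance. The 32 genes had a median of 113 TPM, against 7.77 TPM for all genes tested. By fitted value 10 were higher and 22 lower in KO+OE cells. That split became 15 and 17 with median-ratio rescaling or without mitochondrial genes. Mitochondrial genes took 21.0% and 21.1% of the total in control cells, against 21.6% and 22.1% in KO+OE cells.

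The intervals were narrow where the genes were abundant. All 32 confidence intervals (95%, limma) lay within a 2-fold change, and 27 lay within a 1.5-fold change, as did 71.0% of all genes tested. The 19 genes that averaged 50 TPM or more all lay within 1.5-fold, with log2 fold changes from -0.12 for SLC2A1 to 0.09 for PDHA1. Their median coefficient of variation was 1.36% between the control and 2.46% between the KO+OE libraries, against 9.51% and 7.64% for the 13 tested genes under 50 TPM. For LDHA the log2 fold change was 0.06 (interval -0.05 to 0.17) and for LDHB 0.04 (interval -0.04 to 0.12). Leaving out KO+OE replicate 1 gave the lowest values, 0.033 for LDHA and 0.023 for LDHB, and leaving out KO+OE replicate 2 the highest, 0.085 and 0.056. For GAPDH it was 0.0033 (interval -0.06 to 0.07). Differences smaller than these intervals were not detectable with 2 libraries per group.

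**Figure D3:**
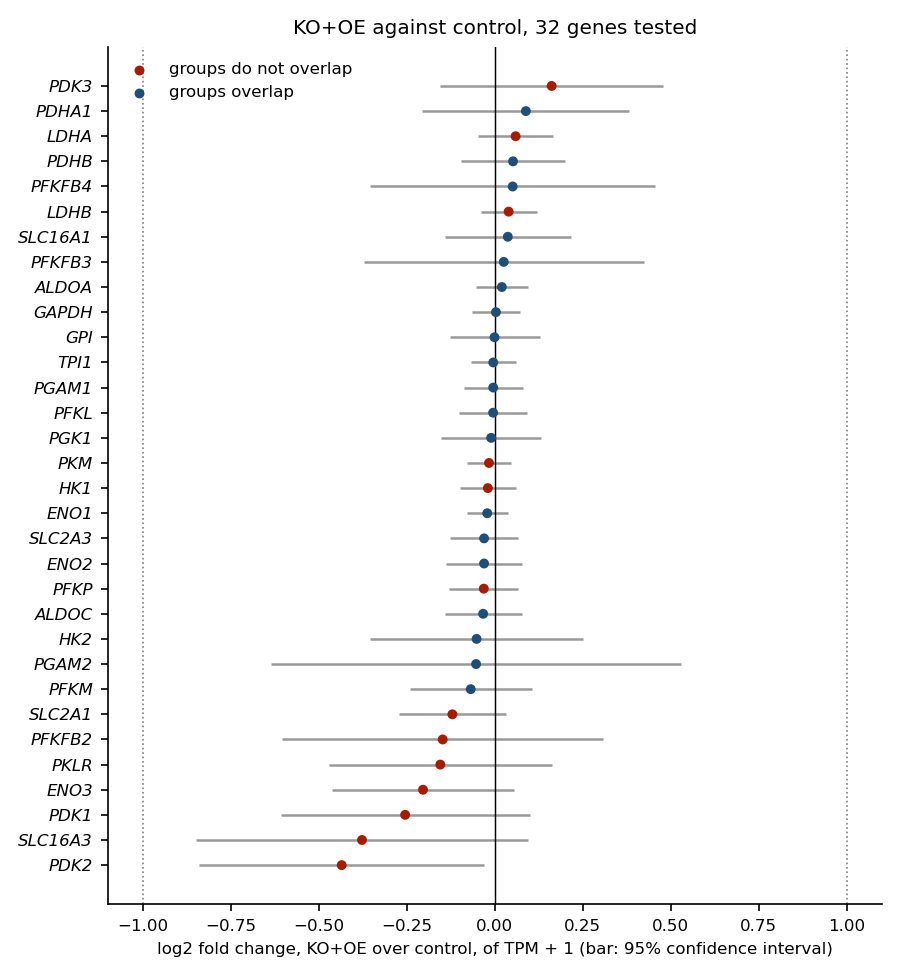
Log2 fold change of KO+OE over control for the 32 tested genes, on the scale log2(TPM + 1), with limma's 95% confidence intervals as bars, ordered by value, with red points where the groups do not overlap and dotted lines at a 2-fold change. All intervals but that of PDK2 cross 0, and those of the abundant genes of the lower pathway are the shortest. GPI, PFKL, TPI1, PGK1, PGAM1 and PKM lie so near 0 that another scaling turned their direction.

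The groups did not overlap for 13 of the 32 genes, against 34.1% of all genes tested. In 10 of them (SLC2A1, HK1, PFKP, PFKFB2, ENO3, PKM, PKLR, SLC16A3, PDK1 and PDK2) both KO+OE libraries were lower, as in 19.6% of all genes. In LDHA, LDHB and PDK3 both were higher, as in 14.5% of all genes. The count fell to 10 with median-ratio rescaling and to 9 without mitochondrial genes, where 6 were lower and 3 higher. Without mitochondrial genes, 16.8% of all genes tested were lower and 17.1% higher in this way, and with median ratios 17.1% and 17.0%. PDK2 had the largest difference, with a log2 fold change of -0.43 (interval -0.84 to -0.03, limma unadjusted p = 0.0395, adjusted p = 0.928). Without control replicate 1 it was -0.28, and likewise -0.28 without KO+OE replicate 1, each with an unadjusted p over 0.05. SLC16A3 followed at -0.38 (interval -0.85 to 0.09), and its value was -0.13 without control replicate 1. Leaving out control replicate 2 gave -0.63. For SLC2A1, control replicate 1 again stood highest, and the log2 fold change was -0.04 without it and -0.20 without control replicate 2. The largest positive value was that of PDK3, at 0.16 (interval -0.16 to 0.48), and it was 0.033 without control replicate 1 and 0.29 with control replicate 2 left out.

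Rows that share sequence with these genes held little signal. Of 106 rows of processed pseudogenes, copies of spliced mRNAs in the genome, 62 were of GAPDH, 76 were at 0 in all libraries, and only GAPDHP37 averaged over 1 TPM, at 1.70 TPM. Summed by parent, they did not exceed 0.0783% of the parent gene. How reads that match both a gene and its pseudogenes were treated is not known. Low pseudogene rows therefore do not show that the parent values were unaffected. SLC2A14, a close paralogue of SLC2A3 named after its values were seen, had a mean of 9.07 TPM, or 4.36% of SLC2A3. How reads shared by both were assigned is not given in the sources used here, and its part in the values was not tested. The strand of the libraries is not given in the sources used here, so antisense transcripts may share reads with their partners. SLC16A1-AS1, which lies opposite SLC16A1, was at 4.51 and 4.5 TPM in control cells and at 3.58 and 3.21 TPM in KO+OE cells. Its limma unadjusted p was 0.0460 and its adjusted p 0.928. Of 3 antisense rows, 2 averaged 1 TPM or more. The other of these, SLC2A1-AS1, averaged 2.15 TPM, with a limma unadjusted p of 0.862. ENO1-AS1 averaged 0.055 TPM and was not tested.

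Abundance did not follow the base composition of the transcripts closely. Over the 36 genes the Spearman correlation of mean TPM with the GC content of the canonical transcript was 0.04, and with its length -0.23. Over the 32 tested genes they were 0.08 and -0.40, and over 12147 tested genes with a value 0.27 and -0.19. All points share the same libraries, and these are descriptions across genes. Because TPM is divided by transcript length, the correlations with length may be partly built into the unit. The dominant isozyme was the richer in G and C of the leading pair in 7 of 12 steps and the poorer in 5, and it was the shorter in 6. LDHB and LDHA were alike in composition, with 43.7% and 41.8% G and C, and had lengths of 1303 and 2241 bases. PGK1 combined 42.8% G and C with a length of 4812 bases, the longest canonical transcript among the enzymes between GAPDH and PKM.

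**Figure D4:**
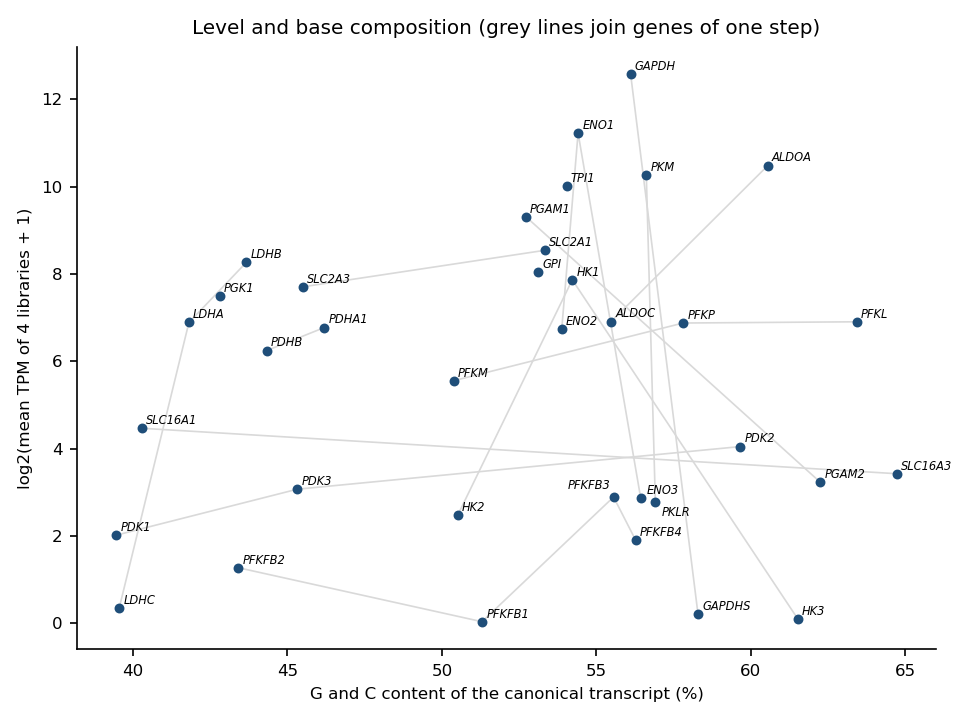
Mean level over the 4 libraries, as log2(mean TPM + 1), against the GC content of the canonical transcript in percent, 1 point for each of the 36 genes and grey lines joining genes of one step. The genes span GC contents from PDK1 at 39.5% to SLC16A3 at 64.7%, and both high and low levels are found along that range.

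In the genome, 6 of the 36 genes lay on chromosome 12, and the set was spread over 14 chromosomes. GAPDH (chr12:6534517-6538371), TPI1 (chr12:6867420-6870948) and ENO2 (chr12:6914580-6923697) lay within 389181 bases (RefSeq, GRCh38.p14), with mean levels of 6097, 1032 and 107 TPM. LDHA (chr11:18394563-18408425) and LDHC (chr11:18412318-18452063) were neighbours, one at over 113 TPM and the other under 1 TPM in every library.

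The surrounding pathways likewise held no called gene. In 6 further lists, 0 genes passed an adjusted p of 0.05 in limma, and 3 had an unadjusted p under 0.05 (DLD, PRKAA1 and ESRRA). Among all genes tested, 5.33% had an unadjusted p under 0.05, and the number tested is given with each list. Of 31 further genes of glycolysis, gluconeogenesis and transport, 15 were tested, with a median log2 fold change of -0.03. BPGM, which makes 2,3-bisphosphoglycerate, had the largest absolute value of this list at 0.19, and PC, pyruvate carboxylase, was next at -0.17. The same list held BSG, the chaperone that brings the lactate transporters to the membrane, at 1223 TPM, the highest mean of its list and far above the 30.9 TPM that the transporters SLC16A1 and SLC16A3 summed to.

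Entry of pyruvate into the mitochondria was covered by 10 genes, of which 8 were tested, with a median log2 fold change of -0.07. DLD, the E3 subunit that pyruvate dehydrogenase shares with other complexes, was at 3.25 and 4.72 TPM in control cells and at 2.22 and 2.08 TPM in KO+OE cells. Its log2 fold change was -0.65 (limma unadjusted p = 0.0187, adjusted p = 0.928). PDHX, which anchors E3 to the complex, was at 2.21 and 2.07 TPM and at 2.91 and 2.54 TPM, with a log2 fold change of 0.25. Both thus stood at a few TPM beside PDHA1 at about 100 TPM.

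The TCA cycle was tested at all 17 of its genes and had a median level of 59.7 TPM and a median log2 fold change of -0.012. SUCLA2 and SUCLG1, subunits of succinyl-CoA ligase, had the largest absolute values at 0.20 and -0.16. The pentose phosphate pathway had a median level of 72.4 TPM, with 8 of 9 genes tested and a median log2 fold change of -0.02. Its transketolase TKT, at a mean of 2328 TPM, was close in level to ENO1 at 2400.3 TPM. The largest values there were 0.10 for RPE and -0.05 for RPIA.

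Of 21 hypoxia factors and hypoxia-induced genes outside glycolysis, 19 were tested, with a median level of 6.10 TPM and a median log2 fold change of 0.01. NDRG1, a hypoxia and stress response gene, was at 4.83 and 5.55 TPM in control cells and at 6.41 and 14.01 TPM in KO+OE cells. Its log2 fold change of 0.77 rested mostly on KO+OE replicate 2, and the adjusted p was 0.931 in limma. KDM3A, a hypoxia-induced histone demethylase, followed at 0.22. Among 13 other regulators, 10 were tested, with a median log2 fold change of -0.0074. PRKAA1, a catalytic subunit of AMP-activated kinase, was at 1.2 and 2.12 TPM in control cells and at 3.24 and 2.63 TPM in KO+OE cells. Its log2 fold change was 0.58 (limma unadjusted p = 0.0493, adjusted p = 0.931). ESRRA, a nuclear receptor of energy metabolism, was at 32.21 and 29.99 TPM and at 26.53 and 23.65 TPM, with a log2 fold change of -0.30 (limma unadjusted p = 0.0139, adjusted p = 0.928).

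**Figure D5:**
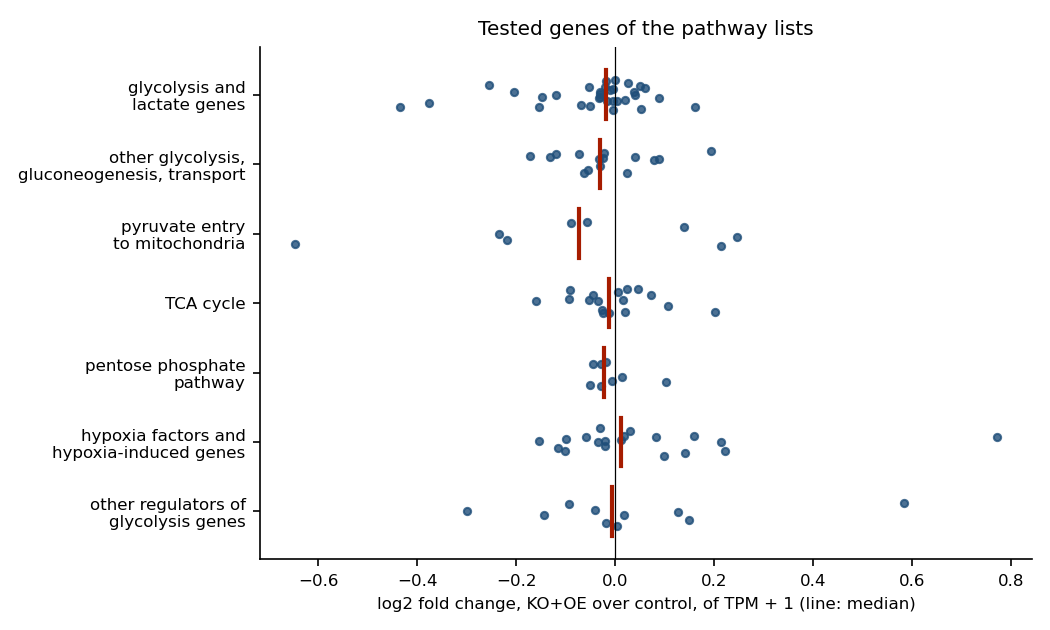
Log2 fold change of KO+OE over control for each tested gene of the glycolysis and lactate genes and of the 6 further lists, on the scale log2(TPM + 1), 1 point per gene with the median as a red line. The medians lie between -0.07 and 0.01, and NDRG1 and DLD lie farthest from 0.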

How the data were processed

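RNA-seq values of 4 H9 libraries were used, 2 control and 2 KO+OE, grouped by sample title. The authors deposited 1 table of 60671 genes whose header names no unit. The deposited values were read as TPM because the columns sum to 986853 to 987078. Such sums do not show whether values were divided by transcript length. They are rounded to 2 decimals. Depth is unknown and no counting error was computed. There were 0 further columns. The submitters' processing notes name HISAT2, featureCounts, Subread, DESeq2 and hg38, without roles. DESeq2 needs counts and was not run.

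Genes averaging 1 TPM or more were tested on log2(TPM + 1) with limma 3.58.1 (lmFit, eBayes with trend, two-sided) in R 4.3.3. P-values were adjusted over all genes tested. Shares and ratios of isozymes were compared by exact permutation over libraries (scipy 1.17.1). All 36 genes are named, and the 2 genes of largest absolute log2 fold change of each further list. The 36 genes and the lists were chosen with earlier results of these data known. Positions and promoters are RefSeq's on GRCh38.p14, the assembly that hg38 denotes. Transcript GC content and length are those of GENCODE release 44 on GRCh37, matched by gene identifier. One gene was taken out of a further list once its values were known, though not because of them, and is not reported here. The fit was first checked on simulated data. Same-numbered libraries did not deviate together (correlation -0.0485 over 12319 genes).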

Additional observations from a re-analysis of the deposited data

How the results depend on the processing

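No setting called any of the 36 genes, and the lowest adjusted p under any of them was 0.864. The 1 gene called among all genes tested became 0 with pseudocounts of 0.1 or 5, a filter at a mean of 5 TPM, no filter, quantile normalization or the replicate number as a block, and 0 to 1 on leaving out a library. The filter also sets how many genes are tested, 12319 in the main fit and 26942 with no filter, so counts between filters are not alike. All genes with an unadjusted p under 0.05 numbered 412 with the filter at 5 TPM and 1314 with no filter. For the 36 genes this count was 0 with no filter, quantile normalization or the replicate block, 2 without the mean-dependent prior (ENO3 and PDK1), and 0 to 3 on leaving out a library.

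The log2 ratio of the summed level was 0.0075 with median-ratio rescaling and 0.0090 without mitochondrial genes, and -0.013 to 0.0023 on leaving out a library. Apart from leaving out libraries, 269 of 284 values of single genes kept their direction, 14 turned and 1 was exactly 0. With median-ratio rescaling, quantile normalization and rescaling without mitochondrial genes, in that order, the log2 fold change was 0.012, 0.0036 and 0.014 for GPI, 0.0080, 0.0091 and 0.0095 for PFKL, 0.0084, 0 and 0.0100 for TPI1, and 0.0024, 0.010 and 0.0040 for PGK1. It was 0.0083 for PGAM1 with median ratios and 0.0099 without mitochondrial genes, and 0.019 for PKM with quantile normalization. The cause was not tested.

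On leaving out each library, 17 genes turned direction. Their log2 fold changes ran from -0.064 to 0.0036 for SLC2A3, -0.12 to 0.013 for HK2, -0.057 to 0.056 for GPI, -0.025 to 0.016 for PFKL, -0.14 to 0.0080 for PFKM, -0.14 to 0.19 for PFKFB3, -0.076 to 0.18 for PFKFB4, -0.0085 to 0.048 for ALDOA, -0.070 to 0.0040 for ALDOC, -0.016 to 0.0075 for TPI1, -0.022 to 0.028 for GAPDH, -0.077 to 0.057 for PGK1, -0.034 to 0.025 for PGAM1, -0.31 to 0.20 for PGAM2, -0.014 to 0.088 for SLC16A1, -0.049 to 0.23 for PDHA1 and -0.0023 to 0.11 for PDHB. Where 1 library was left in a group, it was assumed to vary like the other group.

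Same-numbered replicates did not pair the libraries, and the replicate block gave 673 genes with an unadjusted p under 0.05 against 656. The limits are the 2 libraries per group, the single edited clone, the unknown depth and the unnamed unit.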

Other observations

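Of 38 markers of lineages other than pluripotent cells, 12 averaged 1 TPM or more, and some of them are given here. COL1A1, the main fibrillar collagen, had a mean of 54.5 TPM, KRT7, a keratin of simple epithelia, 18.6 TPM, RBFOX3, the neuronal splicing factor NeuN, 16.3 TPM, and GATA6, an endoderm factor, from 4.35 to 8.39 TPM over the libraries. OTX1, a neuroectoderm factor, was at 9.39 to 9.86 TPM. COL1A2 of the fibroblast list averaged 13.6 TPM, and SYP and NEFL of the neuron list averaged 3.74 and 4.1 TPM. The remaining members of these lists were near or at 0. Means were 0.0050 TPM for COL3A1 and 0.035 TPM for DCN in the fibroblast list. CGA and SOX17 were listed at 0 in all libraries. GATA3 and CDX2 of the trophoblast list, STMN2 and SYT1 of the neuron list, PAX6, SOX1 and ZIC1 of the neuroectoderm list, and GATA4 and FOXA2 of the endoderm list all averaged under 1 TPM. In none of these lists did a gene pass an adjusted p of 0.05 in limma, and 0 had an unadjusted p under 0.05. Within the sperm list, DDX4, TNP1 and PRM2 were listed at 0 in all libraries and PRM1 was at 0.26 to 1.51 TPM. Their part in the values of GAPDHS and LDHC was not tested.

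HIF1A, the regulated subunit of hypoxia-inducible factor, was at 4.12 and 4.29 TPM in control cells and at 4.93 and 4.55 TPM in KO+OE cells. MYC was at 42.45 to 45.13 TPM. HIF1A and MYC were named after their values were seen.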
